A study of Homo sapiens with 24 samples.

Results

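The pyruvate dehydrogenase complex of mitochondria turns pyruvate into acetyl-CoA and so joins glycolysis to the citric acid cycle. Its E1 enzyme, built from an alpha subunit (PDHA1) and a beta subunit (PDHB), is switched off when the pyruvate dehydrogenase kinases PDK1, PDK2, PDK3 and PDK4 phosphorylate the alpha subunit, and switched on again by the phosphatases PDP1 and PDP2. PDK4 is the kinase best known to be induced by fasting and by glucocorticoids, which spares pyruvate for glucose synthesis.

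The 8 genes described here, of 61533 in the count table, are the 4 kinases, the 2 catalytic phosphatases and the 2 E1 subunits. They were taken by name, and the family was chosen by a measured value, the difference between the SoF and Ctrl lines in the response of PDK4 to 3 h of dexamethasone. The values of PDK4 are therefore a description with no test. The other 7 genes were tested. All 8 passed the filter on low counts that left 23651 genes.

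New RNA was measured by 4sU-seq, in which RNA made during the last hour takes up 4-thiouridine (200 µM here), is purified and is sequenced. The cells were U2OS, a human osteosarcoma line, that stably expressed the glucocorticoid receptor (GR) fused to HaloTag, a tag that binds fluorescent dyes. The wt line carried wild-type GR, and the SoF line K492A GR with affinity reduced for RNA and, to a lesser degree, for DNA. The Ctrl line carried R470A GR, meant to match the reduced DNA affinity of SoF. The authors measured these affinities in vitro, where Ctrl lost somewhat more DNA affinity than SoF. They did not test the loss of RNA binding in cells. Each line was held in hormone-stripped serum. The synthetic glucocorticoid dexamethasone was given at 100 nM, lasting 1, 2 or 3 h, and the 0 h cells had 0.01% ethanol. Medium was changed as treatment began, and each line had a single ethanol group, its length not stated. Hormone and time since that change therefore cannot be told apart in any change from 0 h. Each of the 12 groups had 2 libraries, 24 in all. The constructs were driven by a viral promoter, inserted by transposon and sorted on the dye as 1 pool a line, so the construct and the cell pool cannot be told apart. The labels number the 2 libraries of a group but do not say whether they came from separate cultures, so p-values measure the spread between these libraries, which may be technical. The authors purified labelled RNA in pairs of replicates. If a pair is the 2 libraries of a group, spread between purifications is not in these p-values.

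Total counts per library lay between 8106036 and 15820806. Bone and mesenchymal markers were present, with summed levels of 1074 to 2292 CPM (counts per 1000000), although COL1A2, 1 of the 5, did not pass 0.602 CPM. Of the epithelial markers KRT8 was at 111 to 263 CPM, with EPCAM at no more than 3.601 and CDH1 at no more than 8.09. Blood and liver markers summed to at most 2.17 and 0.337 CPM, with HBB at 0 in every library. New RNA of NR3C1, the gene of the receptor, was higher in SoF and Ctrl than in wt over all times. On the log2 scale the difference was 1.89 (SE 0.41) for SoF and 2.18 (SE 0.42) for Ctrl, while SoF and Ctrl differed by -0.30 (SE 0.40). The authors picked sorted fractions with like nuclear GR protein by immunofluorescence, so these differences in RNA do not measure receptor protein. The 0 h libraries of the same number deviated alike in the 3 lines (r = 0.394 to 0.568 across genes between lines), and a deviation of this kind does not average out over the lines. In such bulk libraries, fewer cells making an RNA and less RNA made per cell cannot be told apart.

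The promoters of the genes that were higher in dexamethasone than at 0 h are shown because GR acts by binding DNA near or far from a gene's start. They are the 250 bases before the RefSeq start in build GRCh38.p14, each read in the direction of the gene, with TGTTCT or its reverse complement AGAACA, one side of the GR-binding palindrome, in capitals. PDK4 lies on the minus strand and its stretch is chr7:95596517-95596766, PDK2 lies on the plus strand at chr17:50094487-50094736, and PDP2 on the plus strand at chr16:66880265-66880514. PDK2 has further RefSeq entries downstream, at chr17:50095101-50095350 and chr17:50095445-50095694, which are not printed and held no such word. The stretch of PDK4 overlaps an exon of PDK4-AS1, and that of PDK2 an exon of ENSG00000276851.
PDK4: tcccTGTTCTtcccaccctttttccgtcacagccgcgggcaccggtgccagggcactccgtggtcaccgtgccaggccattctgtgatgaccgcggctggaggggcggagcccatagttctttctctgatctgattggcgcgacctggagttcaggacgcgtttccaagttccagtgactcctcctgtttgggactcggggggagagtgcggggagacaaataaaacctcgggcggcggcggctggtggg
PDK2: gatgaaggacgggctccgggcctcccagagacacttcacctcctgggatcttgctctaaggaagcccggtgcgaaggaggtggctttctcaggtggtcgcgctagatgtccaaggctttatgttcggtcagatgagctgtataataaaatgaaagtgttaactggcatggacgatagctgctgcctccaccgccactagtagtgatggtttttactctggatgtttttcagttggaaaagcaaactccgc
PDP2: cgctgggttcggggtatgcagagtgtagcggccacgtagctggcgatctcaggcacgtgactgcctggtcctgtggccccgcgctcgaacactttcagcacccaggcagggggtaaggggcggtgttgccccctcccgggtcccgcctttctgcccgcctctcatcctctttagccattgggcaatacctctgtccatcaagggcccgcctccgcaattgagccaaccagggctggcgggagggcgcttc

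PDK4 held the 6-letter word once, beginning 246 bases before the start, and the stretches of PDK2 and PDP2 held none. Of 35116 RefSeq promoter entries, 12.4% held it on either strand. Entries of 7 of the 8 genes were examined, all but PDP1. The palindrome in which GNACA and TGTNC stand 3 bases apart (N is any base, and 13 bases in all) was absent from the 250 bases of each of these genes and was held by 0.327% of the entries.

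Within 20 kb on either side of the GENCODE start, the same palindrome was found at 39.7% of 23580 tested genes with a position in hg38. Among the 8 genes it was found at 2, PDK2 and PDHA1, and its stricter form, GAACA and TGTTC 3 bases apart, held by 4.19% of the genes, at none. The match of PDK2 lies in an intron of PDK2, 4543 bases after the start on the plus strand, and is shown with 10 bases on each side and the palindrome in capitals (chr17:50099280-50099292).
PDK2 intron: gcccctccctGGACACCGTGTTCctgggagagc

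Among the kinases, PDK4 (ENSG00000004799.8, chromosome 7, 95583499 to 95596516, minus strand, hg38) had the widest range, from 0.928 to 80.2 CPM over the 24 libraries, 86.3-fold, against 1.81-fold to 3.11-fold for the other 7 genes. CPM were scaled with TMM factors, which even out the makeup of the libraries. In wt, PDK4 was at 2.43 and 5.69 CPM at 0 h, 36.4 and 38.6 at 1 h, 42.7 and 39.2 at 2 h and 44.5 and 42.1 at 3 h. In SoF it was at 3.10 and 5.82 CPM at 0 h, 44.9 and 58.7 at 1 h, 49.4 and 54.6 at 2 h and 80.2 and 74.4 at 3 h. Every treated wt and SoF library lay above every 0 h library of its line, and most of the rise was there at 1 h.

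The Ctrl line followed another course. There PDK4 was at 0.928 and 1.65 CPM at 0 h, 6.53 and 10.3 at 1 h, 1.80 and 3.55 at 2 h and 1.103 and 1.53 at 3 h. The libraries at 1 h and 2 h lay above both 0 h libraries, and those at 3 h overlapped them. Counts of PDK4 reached no more than 102 in a Ctrl library and were as low as 13, so counting error was largest there, while the highest library, of SoF, held 993.

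**Figure D1:**
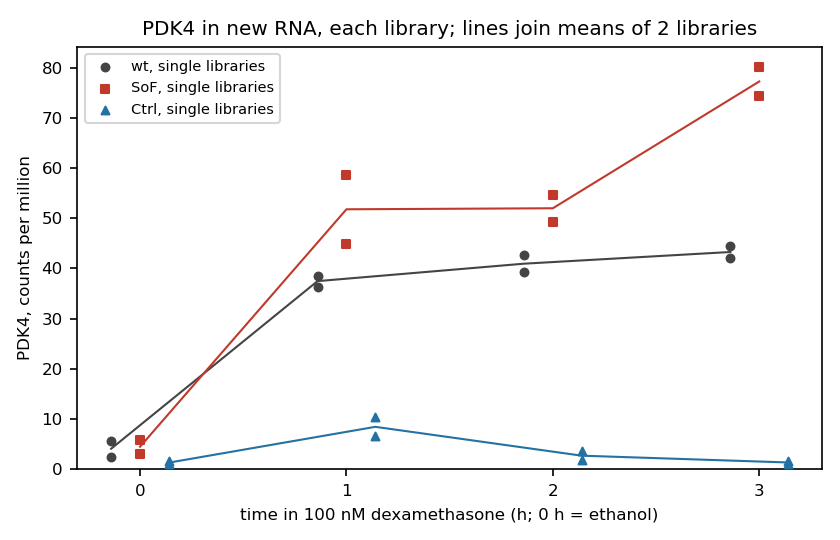
PDK4 in new RNA as CPM (y axis) against time in dexamethasone in hours (x axis), with points for single libraries and lines joining the means of 2 libraries in wt, SoF and Ctrl. Means at 3 h were 43.3 in wt, 77.3 in SoF and 1.32 in Ctrl, and the Ctrl line peaked at 8.42 at 1 h.

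As means, PDK4 went from 4.06 ± 2.31 to 43.3 ± 1.72 CPM between 0 and 3 h in wt (SD, n = 2), from 4.46 ± 1.92 to 77.3 ± 4.12 in SoF and from 1.29 ± 0.51 to 1.32 ± 0.303 in Ctrl. The fitted log2 change was 3.22 (SE 0.30), 3.35 (SE 0.30) and 3.43 (SE 0.30) at 1, 2 and 3 h in wt, and 3.57 (SE 0.31), 3.58 (SE 0.31) and 4.15 (SE 0.31) in SoF. In Ctrl it was 2.78 (SE 0.41), 1.19 (SE 0.47) and 0.11 (SE 0.54). At 3 h these are a 17.7-fold rise in SoF, a 10.8-fold rise in wt and a ratio of 1.08 in Ctrl. The spread between 0 h libraries moved the changes: without the lower of the 2 in each line, replicate 1, the 3 h values were 2.91 for wt, 3.74 for SoF and -0.31 for Ctrl, and without replicate 2 they were 4.17, 4.64 and 0.49. Changes of a line at different times share the same 0 h libraries.

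PDK2 (ENSG00000005882.12, chromosome 17, 50094737 to 50112152, plus strand), the most widely expressed of the kinases across tissues, rose over the time in dexamethasone. It was at 10.1 and 11.2 CPM at 0 h and 12.7 and 15.5 at 3 h in wt, at 8.70 and 5.92 and then 12.8 and 13.8 in SoF, and at 8.14 and 6.48 and then 10.95 and 14.8 in Ctrl. Both 2 h and both 3 h libraries lay above the 0 h libraries in all 3 lines, while 1 h overlapped 0 h in each. With 2 libraries a group, here and below, groups can lie apart by chance. The share of all genes that did so was not counted. Averaged over the lines, PDK2 rose by 0.68 (SE 0.15) on the log2 scale at 3 h, 1.61-fold, with an adjusted p of 9.65e-04 by edgeR, Benjamini-Hochberg adjusted over all genes tested. Called here means an adjusted p under 0.05. The wt line changed by 0.41 (SE 0.25) at 3 h, SoF by 0.85 (SE 0.26) and Ctrl by 0.80 (SE 0.27), and the latter pair were called. The SoF call was lost without SoF replicate 2 at 0 h (0.61), SoF replicate 1 at 3 h (0.90) or SoF replicate 2 at 3 h (0.79), and the Ctrl call without 17 of the 24 libraries in turn (0.57 to 1.00). Of PDK2's exon bases 38.6% also belong to SAMD14 on the opposite strand, which was at 0.942 to 1.77 CPM at 0 h and 1.79 to 3.91 at 3 h. Because the use of strand in counting is known only from the title of the table, the level of PDK2 is uncertain to that extent.

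PDK1 (ENSG00000152256.14, chromosome 2, 172555373 to 172608669, plus strand), a target of the hypoxia factor HIF1, fell on average over the lines, from different starting levels. At 0 h it was at 14.97 and 17.5 CPM in wt, against 26.2 and 28.5 in SoF and 23.4 and 32.03 in Ctrl. At 1 h it was at 26.7 and 28.6 in wt, 40.8 and 29.8 in SoF and 31.6 and 26.7 in Ctrl, and at 3 h at 19.8 and 14.4, 18.3 and 18.0, and 15.1 and 17.7. The wt libraries were the low ones at 0 h and overlapped those of the other lines at 3 h. The mean 3 h change over the lines was -0.42 (SE 0.13, adjusted p 0.0104 in edgeR), made up of 0.08 (SE 0.22) in wt, -0.59 (SE 0.22) in SoF and -0.75 (SE 0.22) in Ctrl, of which Ctrl alone was called. That call was lost without Ctrl replicate 2 at 0 h (-0.52), Ctrl replicate 1 at 3 h (-0.64) or Ctrl replicate 2 at 3 h (-0.86). The SoF change (adjusted p 0.0589 in edgeR) was called by DESeq2 (0.0491) and in edgeR on the SoF libraries alone (0.0486). The rise at 1 h in wt, 0.77 (SE 0.22), was not called (edgeR gave an adjusted p of 0.222, and 0.0361 with no filter on low counts).

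PDK3 (ENSG00000067992.17, chromosome X, 24465244 to 24550466, plus strand), a kinase of narrower expression, was the least abundant of the kinases per length at 0 h together with PDK4. It was at 8.56 and 11.2 CPM at 0 h and 7.60 and 5.59 at 3 h in wt, at 9.21 and 10.9 and then 7.51 and 7.05 in SoF, and at 7.14 and 9.42 and then 7.13 and 5.94 in Ctrl. Each 3 h library lay below both 0 h libraries of its line, in Ctrl by as little as 7.13 against 7.14 CPM. Its mean change over the lines was -0.46 (SE 0.14, adjusted p 0.0139 in edgeR), and no single line was called.

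The call of PDK3 was lost without wt replicate 2 at 0 h (-0.38), wt replicate 2 at 3 h (-0.38), Ctrl replicate 2 at 0 h (-0.39) or Ctrl replicate 2 at 3 h (-0.41). The call of PDK1 was lost without wt replicate 2 at 3 h (-0.34). The calls of PDK2, PDP1, PDP2 and PDHB in the mean response held without each of the 12 libraries at 0 or 3 h in turn.

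**Figure D2:**
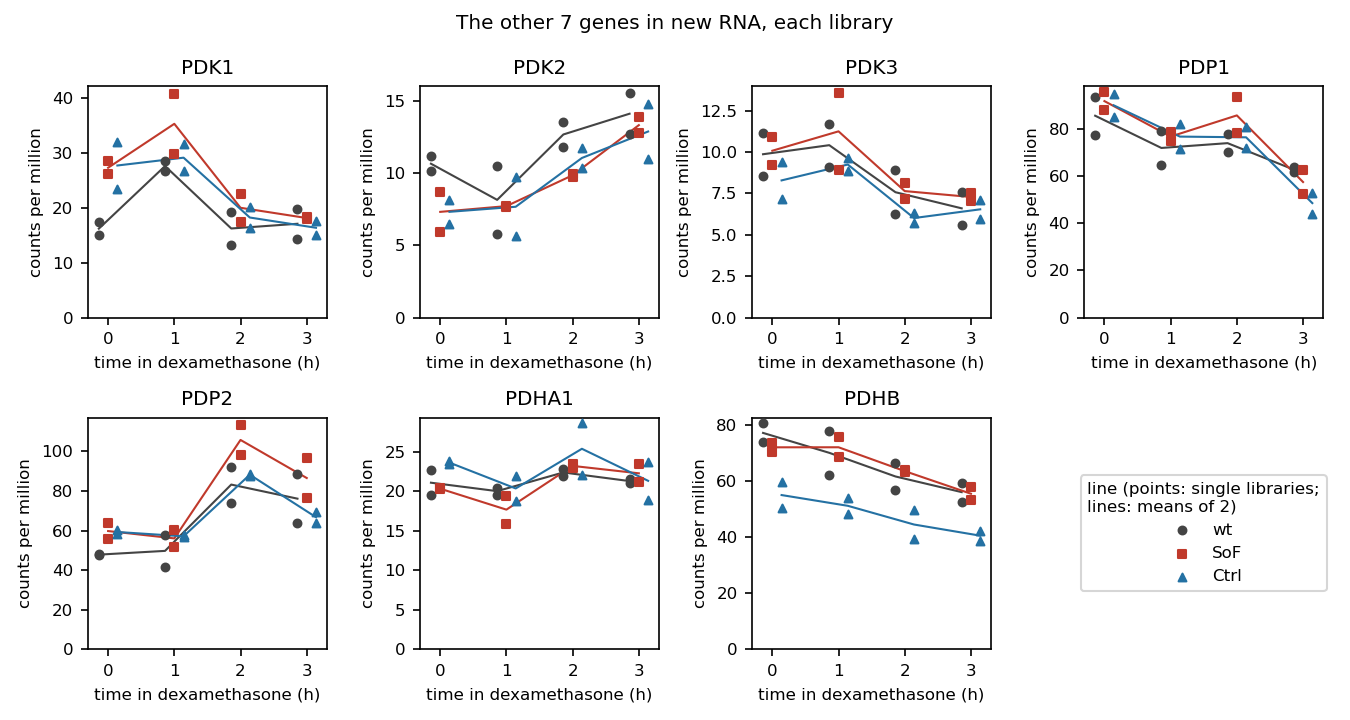
CPM (y axis, each from 0) of the other 7 genes against time in dexamethasone in hours (x axis), with points for single libraries and lines joining means of 2. The mean of PDP2 peaks at 2 h in each line, PDK2 climbs to 3 h, PDP1 and PDHB fall, and PDHB is lower in Ctrl at every time.

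The 2 phosphatases moved in opposite directions. PDP2 (ENSG00000172840.7, chromosome 16, 66878589 to 66895754, plus strand), the isoform known to respond to insulin, was not called at 1 h and was higher from 2 h. In wt it was at 48.2 and 47.4 CPM at 0 h, 41.8 and 57.6 at 1 h, 74.1 and 92.4 at 2 h and 88.4 and 63.9 at 3 h. In SoF the values were 63.6 and 55.8, then 60.4 and 51.7, then 114 and 98.1, then 96.9 and 76.2 CPM. In Ctrl they were 60.2 and 58.3, then 57.6 and 56.5, then 88.7 and 87.8, then 69.6 and 63.9 CPM. All 2 h and 3 h libraries lay above the 0 h libraries of their line, and the 1 h libraries overlapped them except in Ctrl, where both lay just below.

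PDP2 was the only one of the other 7 genes called at 2 h, and it was called in every line. It rose by 0.80 (SE 0.17) in wt, 0.82 (SE 0.17) in SoF and 0.57 (SE 0.17) in Ctrl on the log2 scale, with adjusted p of 0.00903, 0.00501 and 0.0430 in edgeR. After 3 h wt stood 0.67 (SE 0.17) above 0 h, SoF 0.53 (SE 0.17) and Ctrl 0.17 (SE 0.17), with wt and SoF called, and the mean of the lines was 0.46 (SE 0.10, with 8.87e-04 as the adjusted p of edgeR), 1.37-fold. The Ctrl call at 2 h was the weakest: it was lost without 16 of the 24 libraries in turn, although the value stayed between 0.54 and 0.59, and with RLE normalization (adjusted p 0.0523 in edgeR). The wt call at 2 h was lost without wt replicate 1 at 0 h (0.78), wt replicate 2 at 0 h (0.79) or wt replicate 2 at 2 h (0.61), and the SoF call without SoF replicate 2 at 0 h (0.73) or SoF replicate 1 at 2 h (0.72). At 3 h the wt call was lost without wt replicate 1 at 0 h (0.67), wt replicate 2 at 0 h (0.68) or wt replicate 1 at 3 h (0.43), and the SoF call without SoF replicate 2 at 0 h (0.45) or SoF replicate 1 at 3 h (0.35).

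PDP1 (ENSG00000164951.16, chromosome 8, 93857807 to 93926068, plus strand), the calcium-stimulated isoform, fell. In wt it was at 77.5 and 93.4 CPM at 0 h and 63.6 and 61.7 at 3 h, in SoF at 87.8 and 95.4 and then 52.4 and 62.3, and in Ctrl at 85.0 and 94.7 and then 44.04 and 52.9. At 3 h every library lay below the 0 h libraries of its line, whereas at 2 h only the Ctrl libraries did so. The log2 changes at 3 h were -0.45 (SE 0.15) for wt, -0.68 (SE 0.15) for SoF and -0.89 (SE 0.15) for Ctrl, the last pair called. Over the lines PDP1 fell by 0.67 (SE 0.09) on the log2 scale to 0.628 of its 0 h level (adjusted p 2.66e-06 in edgeR). The SoF call was lost without SoF replicate 1 at 3 h (-0.56), and the Ctrl call held without each of the 24 libraries in turn. The wt change (adjusted p 0.0588 in edgeR) was called by DESeq2 (0.0461).

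Per length, the share of PDP2 in the 2 phosphatases together went from 27.8% ± 2.89 at 0 h to 45.0% ± 5.15 at 3 h in wt (SD, n = 2), from 30.8% ± 3.22 to 50.6% ± 7.26 in SoF and from 31.1% ± 2.13 to 48.5% ± 4.71 in Ctrl. Levels of different genes are compared here in TPM, in which counts are divided by the length of a gene's merged exons and scaled to 1000000 in all. The shift in share was in the same direction in each line.

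The E1 subunits differed from each other. PDHA1 (ENSG00000131828.14, chromosome X, 19343893 to 19361718, plus strand), which carries the phosphorylated sites, was the steadiest of the 8 genes, between 15.9 and 28.7 CPM over all libraries with a median of 21.8. Its mean 3 h change was -0.00 (SE 0.09, adjusted p 0.996 in edgeR), and it was called in no comparison. MAP3K15 on the opposite strand shares 19.3% of its exon bases but was at no more than 0.434 CPM.

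PDHB (ENSG00000168291.13, chromosome 3, 58427630 to 58433857, minus strand) fell. In wt it was at 80.7 and 73.9 CPM at 0 h and 59.5 and 52.7 at 3 h, in SoF at 73.8 and 70.5 and then 53.2 and 57.9, and in Ctrl at 50.4 and 59.7 and then 38.8 and 42.3. Libraries at 2 h and 3 h lay below the 0 h libraries in each line. The 3 h change was -0.46 (SE 0.15), -0.38 (SE 0.15) and -0.44 (SE 0.15) in wt, SoF and Ctrl, and the mean was -0.43 (SE 0.09, adjusted p 4.36e-04 in edgeR), 0.744 of the 0 h level. Only wt was called alone, and that call was lost without 14 of the 24 libraries in turn, with values from -0.54 to -0.37, and with no filter on low counts (adjusted p 0.12 in edgeR). The Ctrl change (adjusted p 0.0557 in edgeR) was called by DESeq2 (0.0326) and with RLE normalization (0.0439 in edgeR).

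**Figure D3:**
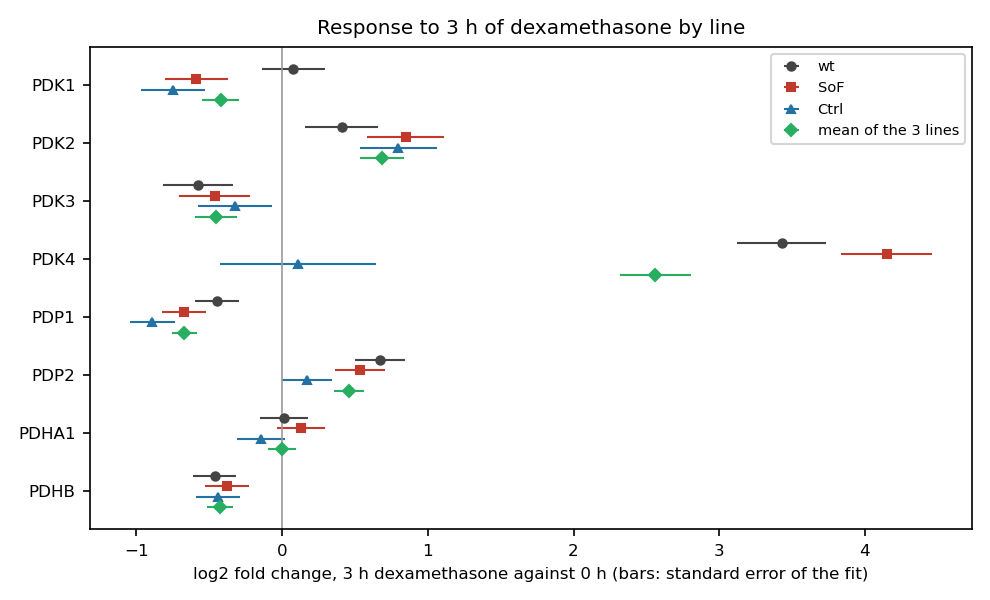
Fitted log2 fold change between 3 h of dexamethasone and 0 h (x axis) for the 8 genes (y axis), with symbols for wt, SoF, Ctrl and the mean of the 3 lines and bars for the standard error of the fit. PDK4 spans 0.11 in Ctrl to 4.15 in SoF, while each of the other genes lies between -0.89 and 0.85 in every line.

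In the mean 3 h response, 6 of the 7 genes other than PDK4 were called, where 40.3% of all 23651 genes tested were. PDK2 and PDP2 rose, 2 of 7 against 20.9% of all genes, and PDK1, PDK3, PDP1 and PDHB fell, 4 of 7 against 19.3%. The median change of the 7 was -0.42 beside -0.03 over all genes tested. At 1 h none of the 7 was called in any line, where 0.156% of genes were called in wt, 0.165% in SoF and 0.0465% in Ctrl. At 2 h 1 of 7 was called in each line, beside 4.6% of all genes in wt, 5.68% in SoF and 7.95% in Ctrl. At 3 h 2 of 7 were called in wt, 3 in SoF and 3 in Ctrl, beside 10.7%, 19.3% and 14.2% of all genes. The 7 genes were picked with PDK4's response known, so these counts describe the family and no more.

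The 3 h responses of the lines were then compared, which bears on whether binding of RNA by GR alters hormone response. For the 7 genes other than PDK4 none of the 21 differences was called in edgeR, with 0 also called by DESeq2. Of all genes, 0.0127% were called between SoF and Ctrl, 0% between SoF and wt (558 at an unadjusted p under 0.05) and 0% between Ctrl and wt (845). The widest of the 21 was PDK1 between Ctrl and wt, -0.83 (SE 0.31, adjusted p 0.982 in edgeR), followed by PDK1 between SoF and wt, -0.67 (SE 0.31). The Ctrl response minus the wt response was -0.50 (SE 0.24) for PDP2 and -0.44 (SE 0.21) for PDP1, also not called. With standard errors of 0.21 to 0.37, differences of this size were not resolved. For PDK4, on which the choice rested, the response in SoF was larger than in Ctrl by 4.04 (SE 0.65) and than in wt by 0.72 (SE 0.43), and Ctrl minus wt was -3.32 (SE 0.64).

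Levels were next ordered per length. Over the 6 libraries at 0 h of the 3 lines together the means were 17.4 TPM for PDP1, 15.6 for PDHB, 7.39 for PDP2, 4.74 for PDHA1, 1.81 for PDK1, 1.61 for PDK2, 0.818 for PDK4 and 0.594 for PDK3. Of neighbours in this order, library ranges were apart between PDHB and PDP2 and between PDHA1 and PDK1, and overlapped between all others. The order within those blocks changed with the line: in wt PDHB was above PDP1 and PDK2 (1.78 TPM) above PDK1 (1.00), and in Ctrl PDK4 (0.326) was below PDK3 (0.534). Without dexamethasone all 4 kinases were below both phosphatases and both subunits per length over the pooled 0 h libraries. For PDK1 and PDHA1 this order rests on the division by merged exons, 14845 bases in PDK1 and 4953 in PDHA1. In CPM the pooled 0 h mean was 23.75 for PDK1 and 21.69 for PDHA1. After 3 h PDK4 was first of the 8 in SoF at 18.8 TPM and ranked 3 in wt at 9.86, and last in Ctrl at 0.292.

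PDK4's share of the 4 kinases' summed TPM went from 19.1% ± 7.62 at 0 h to 67.7% ± 4.33 at 1 h and 69.9% ± 0.975 at 3 h in wt (SD, n = 2). In SoF it went from 20.5% ± 7.89 to 71.7% ± 7.13 and then 80.7% ± 1.23. In Ctrl it went from 7.05% ± 2.12 to 31.8% ± 5.19 and back to 6.998% ± 0.54, with PDK2 then holding 56.8% ± 3.24. The sum of the 4 kinases was 4.14 ± 1.37 TPM at 0 h and 14.1 ± 1.23 at 3 h in wt, 5.93 ± 1.66 and 23.3 ± 0.75 in SoF, and 4.42 ± 1.38 and 4.16 ± 0.286 in Ctrl. These shares contain the PDK4 values that chose the family and are given as description.

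**Figure D4:**
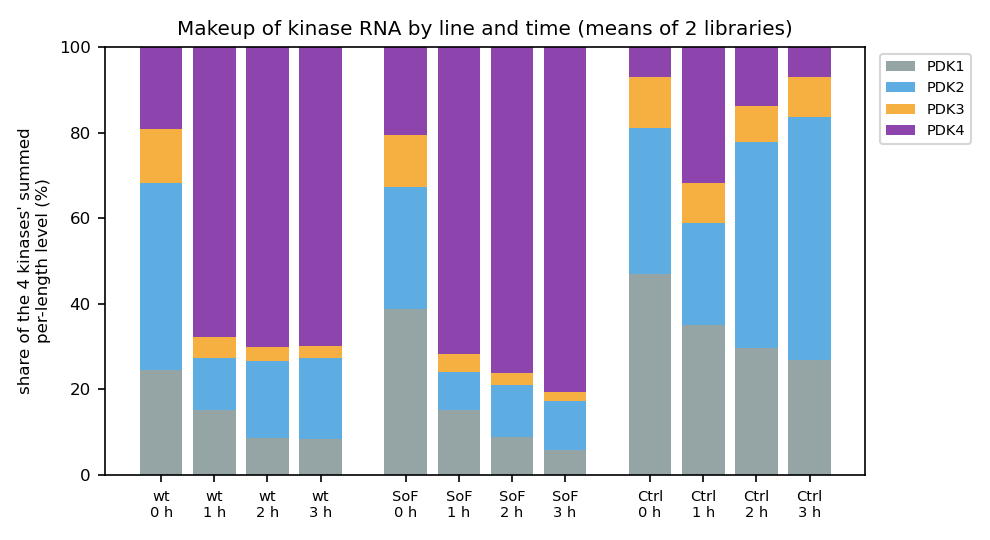
Stacked bars (y axis, percent from 0 to 100) of the share of PDK1, PDK2, PDK3 and PDK4 in their summed level per length in each line and time (x axis), as means of 2 libraries. PDK4 fills 69.9% in wt and 80.7% in SoF at 3 h but 6.998% in Ctrl, where its share at 1 h was 31.8%.

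With time ignored, the 8 libraries of each line were set against the 8 of another. Of the 7 genes PDHB alone was called. Its 8 libraries lay between 38.8 and 59.7 CPM in Ctrl with a median of 49.0, between 53.2 and 75.7 in SoF with a median of 66.2, and between 52.7 and 80.7 in wt with a median of 64.3. PDHB was lower in Ctrl than in wt (-0.47, SE 0.10, adjusted p 0.00891 in edgeR) and higher in SoF than in Ctrl by 0.46 (SE 0.10, adjusted p 0.00895), while SoF and wt differed by -0.00 (SE 0.10). These are 1 of 7 genes between SoF and Ctrl, 1 of 7 between Ctrl and wt and 0 of 7 between SoF and wt, beside 3.61%, 4.77% and 8.02% of the 21122 genes tested. Both calls were lost without the replicate 1 libraries (0.34 and -0.25) and without the replicate 2 libraries (0.59 and -0.68). They were also lost in the 0 h libraries alone (0.40 and -0.49), and were kept with an additive term for time, where PDK1 (0.37) and PDP2 (0.26) were called higher in SoF than in wt as well.

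Genes around PDHB moved with it. Of the 20 other tested genes that start within 2 Mb of PDHB, all 20 were higher in SoF than in Ctrl, with a median of 0.40, and 19 were lower in Ctrl than in wt, with a median of -0.31, where the medians over all tested genes were 0.00 and -0.00. PDHB itself, at 0.46 and -0.47, lay a little beyond these medians. Between SoF and wt the median of the 20 was 0.05. The share of the neighbourhood in the level of PDHB was not tested.

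Around PDK4 the same count gave 14 of 14 genes higher in SoF than in Ctrl (median 0.61), 13 of 14 higher in SoF than in wt (0.41, and 0.26 within 1 Mb) and 9 of 14 lower in Ctrl than in wt (-0.22, and -0.11 within 5 Mb). From the replicate 1 libraries the SoF and wt median was 0.26, and from replicate 2 it was 0.51. PDK4 itself differed by 3.78, 0.57 and -3.21 in the same order, far more than these medians except between SoF and wt. These PDK4 values draw on the 0 h and 3 h libraries by which the family was chosen and are given as description. At 0 h, before any hormone, PDK4 was at 1.29 ± 0.51 CPM in Ctrl, 4.06 ± 2.31 in wt and 4.46 ± 1.92 in SoF (SD, n = 2), and the Ctrl libraries lay below those of both other lines. Its antisense neighbour PDK4-AS1, with which it shares no exon base, was at 0.142 to 2.28 CPM, on 2 to 22 counts a library. Over all times PDK4-AS1 differed by 1.02 between SoF and Ctrl, 0.39 between SoF and wt and -0.62 between Ctrl and wt. Around the other 6 genes the medians lay between -0.06 and 0.12. The largest was around PDP1, where 19 of 20 genes were higher in SoF than in Ctrl.

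**Figure D5:**
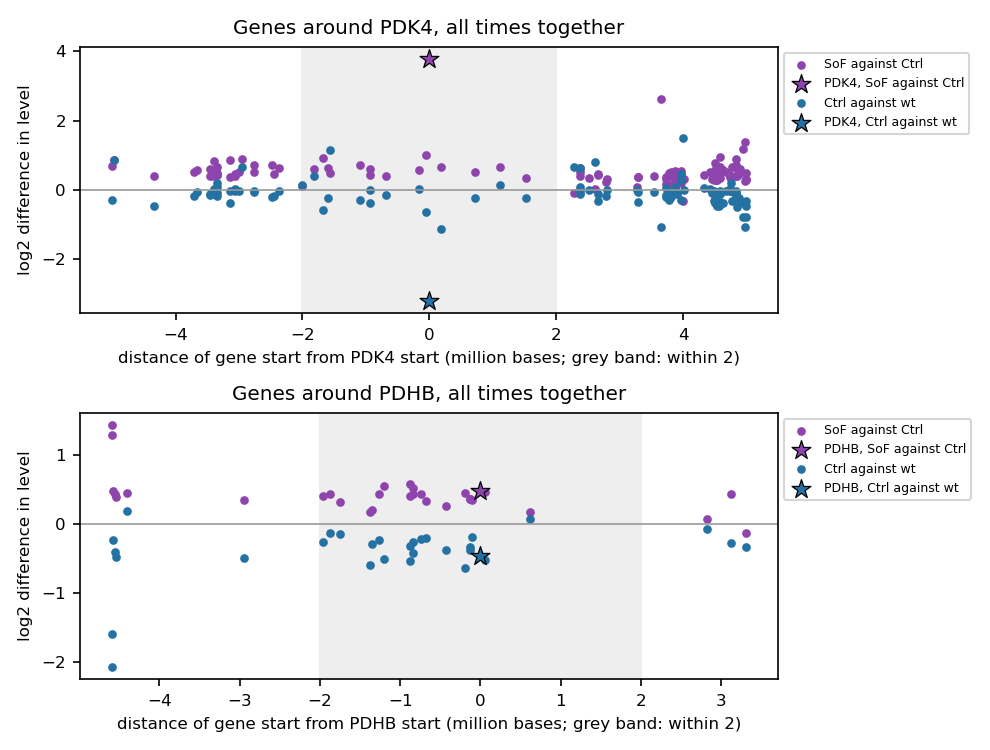
Log2 difference in level over all times (y axis) of tested genes against the distance of their start from that of PDK4 or PDHB in Mb (x axis), for SoF against Ctrl and Ctrl against wt, with stars for PDK4 and PDHB and a grey band for 2 Mb either side. PDHB sits among its neighbours, whose medians are 0.40 and -0.31. PDK4 is at 3.78 and -3.21, a description only, since these values draw on libraries by which the family was chosen. MYH16, 3.64 Mb from PDK4, is at 2.64 and -1.06.

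Other genes of pyruvate use were counted on lists drawn up with earlier results of these data known. Of 35 genes 34 were tested, and 12 rose and 1 fell in the mean 3 h response, with a median change of 0.17. These are 13 of 34 beside the 40.3% of all genes called, of which 20.9% of all genes rose and 19.3% fell. Of the rest of the pyruvate dehydrogenase complex, 2 of 4 tested rose: DLAT, the E2 core, by 0.47 (SE 0.08), and PDPR, the regulatory subunit of the phosphatase, by 0.18 (SE 0.07). Of 10 genes of pyruvate and lactate handling 4 rose, among them PC, pyruvate carboxylase, by 0.74 (SE 0.11), LDHA by 0.43 (SE 0.11) and the lactate transporter SLC16A1 by 0.44 (SE 0.12).

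Of 7 genes of the sister 2-oxoacid dehydrogenases 1 rose, BCKDK, the kinase of the branched-chain complex, by 0.83 (SE 0.14). Of 6 genes of fatty acid oxidation 1 rose, ACADVL, by 0.54 (SE 0.12). Of 7 transcription regulators known to act on kinase genes, 4 rose and 1 fell: FOXO1, a forkhead factor that activates PDK4, rose by 2.19 (SE 0.17), ESRRA by 0.89 (SE 0.14) and FOXO3 by 0.22 (SE 0.08), and the coactivator PPARGC1A fell by 0.75 (SE 0.18) on the log2 scale. The count of each list stands beside 20.9% of all genes tested that rose and 19.3% that fell in this response. Each list holds genes with other uses, and no list was tested as a set.

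Between lines over all times 5 of the 34 were called in at least 1 comparison: 4 between SoF and Ctrl, 1 between SoF and wt and 3 between Ctrl and wt, beside 3.61%, 8.02% and 4.77% of all genes. DLD, the shared E3 subunit, was higher in SoF than in Ctrl by 0.33 (SE 0.09) and MPC2, of the mitochondrial pyruvate carrier, was lower than in wt in SoF (-0.31, SE 0.09) and Ctrl (-0.38, SE 0.09). PCK2 was higher in Ctrl than in wt by 0.77 (SE 0.15) and the carnitine carrier SLC25A20 lower (-1.72, SE 0.39), and SoF minus Ctrl was -0.73 (SE 0.15) and 1.75 (SE 0.39). PPARD was lower in SoF than in Ctrl (-0.43, SE 0.12). None of the 34 was called in a difference of 3 h responses between lines.

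Over the 12 group means of log2 CPM, the genes most like PDK4 among 19701 with a mean of at least 1 CPM were SP110 (Pearson r = 0.963), SLC19A2 (0.956), SLC38A4 (0.951), RTL3 (0.950) and SGK1 (0.946), the last a well-known glucocorticoid-induced kinase. The 12 points share lines, times and 0 h libraries, and r is given as a description. For the other members of the family r with PDK4 ran from -0.30 for PDHA1 to 0.41 for PDHB.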

How the data were processed

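Per the labels and the methods of the authors, 4sU-labelled RNA was sequenced with molecular identifiers, reads were trimmed, aligned to hg38 with STAR 2.7.3a, deduplicated with UMI-tools 1.1.2 and counted on exons of GENCODE v39 genes with featureCounts. The deposited values are raw counts per gene, titled as stranded. Deduplication makes a count a molecule rather than a PCR copy. Replicate numbers came from the labels.

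Symbols and positions were taken from GENCODE v44 (99.7% of IDs matched). Genes passing edgeR's filterByExpr (minimum count 10, minimum total 15) were tested with edgeR 4.0.16 quasi-likelihood fits, TMM normalization and Benjamini-Hochberg adjustment at 0.05. A prior count of 2 was used for log2 CPM and not for the fitted changes. A fit over 12 groups gave responses and a fit over 3 lines gave levels. An SE is the log2 change divided by the root of F. The code was tested on simulated counts. Alternatives were DESeq2 1.42.0, RLE factors, no filter, a replicate block, smaller sets of libraries and leaving out libraries. Totals of 8106036 to 15820806 counts set the precision, poorest for PDK4 in Ctrl.

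The 8 genes, the other gene lists, the tests and the alternatives were chosen with earlier results of these data known. Genes named outside the family are up to 3 per list and direction with the lowest adjusted p, and all called between lines.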

Additional observations from a re-analysis of the deposited data

Results flagged for a closer look

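The response of PDK4 to 3 h of dexamethasone differed between lines by 4.04 on the log2 scale (SE 0.65), as SoF minus Ctrl. It stands here because 2 lines differed under the same treatment, and it is also the value by which the family was chosen, so no p is given. Both SoF libraries at 3 h (80.2 and 74.4 CPM) lay above the SoF libraries at 0 h, and the Ctrl libraries at 3 h (1.103 and 1.53 CPM) overlapped those at 0 h. With 2 libraries a group, single outlying libraries could not be sought.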

How the results depend on the processing

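Of the 7 genes other than PDK4, 11 calls were made over the 9 comparisons with 0 h. The number was 14 with DESeq2, 10 with RLE, 11 with no filter, 11 with the replicate block and 9 with each line alone, and ran from 5 (without SoF replicate 1 at 3 h) to 12 without single libraries. It was 7 without wt replicate 1 at 0 h, SoF replicate 2 at 3 h or either Ctrl library at 3 h, and 6 without wt replicate 2 at 0 h. With each line alone the edgeR calls of PDP2 in wt (adjusted p 0.0523), PDHB in wt (0.0964) and PDK2 in Ctrl (0.0551) at 3 h were lost, as was PDK2 in Ctrl with RLE (0.0506). The mean 3 h response had 6 calls under DESeq2, RLE, no filter and the replicate block, and 4 to 6 without single libraries. Differences in response gave 0 calls under every alternative run. For levels between lines the 2 calls became 4 with an additive time term and 0 in the 0 h libraries alone or without replicate 1 or 2, and the number was 2 with the replicate block. Libraries of the same number deviated together between the 0 h groups (r = 0.394 to 0.568) but not throughout (-0.221 to 0.568 over 66 pairs of groups, 21 above 0.1), and the labels give no pairing. Without division by length, PDK4 held 53.4% of the kinases at 3 h in wt, 66.6% for SoF and 3.53% for Ctrl. Medians around PDK4 within 1 and 5 Mb were 0.574 and 0.452 for SoF against Ctrl, 0.263 and 0.337 for SoF against wt, and -0.241 and -0.11 for Ctrl against wt. Around PDHB they were 0.394 within 1 Mb and 0.413 within 5 Mb for SoF against Ctrl, and 0.0298 and 0.0268 for SoF against wt. No called value changed sign. Values near 0 did without single libraries: PDK4 in Ctrl at 3 h ran from -0.31 to 0.49 and the mean response of PDHA1 from -0.06 to 0.06. The causes of these shifts were not tested.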
